A study of Heterocephalus glaber and Cavia porcellus and Spalacopus cyanus with 7 samples.

Results

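Collagen chain genes were taken from the oocyte gene tables of naked mole-rat and guinea pig by symbol, as every entry written COL, a number, A and a number, without regard to case. This gave 43 of 26623 entries in naked mole-rat and 44 of 25603 in guinea pig, or 44 chains in either species. All 43 naked mole-rat symbols also had an entry in guinea pig, and Col6a5, a chain of the type VI family, was found in the guinea pig table only. For orientation, the chains were grouped into fibrillar chains, type IV basement membrane chains, type VI microfibril chains, the network chains of types VIII and X, fibril-associated chains with interrupted helices (FACIT), the multiplexins of types XV and XVIII, transmembrane collagens and other collagens.

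Collagens are trimers in which 3 chains wind around each other, and each chain has its own gene. Fibrillar collagens build the load-bearing fibrils of connective tissue, FACIT chains coat those fibrils, and type IV collagen forms the sheet of basement membranes. In the ovary, granulosa cells surround the oocyte inside a follicle that is wrapped by a basement membrane rich in type IV collagen, and theca and stroma cells outside it lay down fibrillar collagen, so that collagen RNA is best known from the cells around the oocyte.

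The study sequenced RNA of oocytes, fully grown or late in growth, that were freed from ovaries by mechanical disruption and stripped of cumulus cells. Naked mole-rat gave 5 libraries, each from 1 female, and the females were 1 to 8 years old. Guinea pig gave 1 library, in which oocytes of 3 females aged 6 to 9 months were merged before extraction. All animals were freshly sacrificed, and none is described as treated. Replicates 2 and 3 carry the letter Y and replicates 4 and 5 the letter O, which no label explains. Replicate 1 carries no letter, and its counts were deposited apart from those of replicates 2 to 5, which were deposited together. Whatever sets replicate 1 apart cannot be told from that separate deposit.

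Gene counts summed to between 13512223 and 29561451 per naked mole-rat library and to 24515642 in guinea pig. Levels are given as CPM, the counts of a gene per 1000000 counts assigned to genes, in which 3 counts, the limit that a count of 0 allows, equal 0.101 to 0.222 CPM in naked mole-rat and 0.122 CPM in guinea pig. CPM still holds the effect of transcript length, so that levels are compared between libraries and not between chains. Of 17 oocyte genes such as Bmp15, Zp2 and Zp3, 15 had at least 10 CPM in all 5 naked mole-rat libraries. Replicate 1 stood apart. Its summed CPM over 19 granulosa cell genes was 6902, against 1034 to 2111 in the other 4 libraries. It also had the highest sum over 17 stroma genes, at 223 against 32.0 to 85.6 CPM. Of those 223 CPM, Ptch1 gave 96.9, Fbln1 46.9 and Mfap5 42.9. Of the 17 stroma genes, 12 were highest in replicate 1, and 6 had a mean of at least 1 CPM. For 10 mural cell genes replicate 1 had 4585 against 187 to 907 CPM, most of it from the pericyte gene Rgs5. For 12 immune genes it had 115 against 7.0 to 27.1 CPM. Of those 115 CPM, Cd74 alone gave 98.6, and 7 of the 12 immune genes were highest in replicate 1. Of the 19 granulosa genes, 17 were highest in replicate 1, and 8 had at least 10 CPM in all 5 libraries, among them Has2, which was lowest in replicate 1. The sum of 11 endothelial genes was lower in replicate 1 than elsewhere, at 120 against 140 to 294 CPM. Most of it came from Tek, at 38.3 against 37.7 to 159 CPM, and Flt1, at 47.1 against 67.6 to 124 CPM. Of the 11 endothelial genes, 4 were highest in replicate 1. The sum of 9 surface epithelium genes was also lower in replicate 1, at 516 against 776 to 1157 CPM. Cdh1 gave 357 of those 516 CPM, and without Cdh1 the sum was higher in replicate 1, at 159 against 35.0 to 77.7 CPM. Its 17 oocyte genes summed to 5279 CPM against 10021 to 12192. The stroma markers Dcn and Lum did not pass 1.74 CPM in any of the 5 libraries. Replicate 5 had the second-highest sums of granulosa and stroma genes, and replicate 2 the lowest. Replicate 1 is therefore called the companion-rich library, and each count of collagen chains that rests on it is also given without it.

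Collagen RNA made up between 0.0258% and 0.209% of the gene counts in naked mole-rat. The 43 chains summed to 2086, 258, 351, 312 and 505 CPM in replicates 1 to 5, a mean of 702 ± 779 (SD, n = 5), and to 357 CPM on average over the 4 libraries other than replicate 1. The companion-rich library was thus 6.29 times the median of the others for collagen and 5.57 times for granulosa genes. Of the 43 chains, 30 were highest in replicate 1 and 4 were lowest there, and 2, Col10a1 and Col13a1, had 0 counts in every naked mole-rat library. The guinea pig library, with 990 CPM over 44 chains, lay between replicate 1 and the rest.

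**Figure D1:**
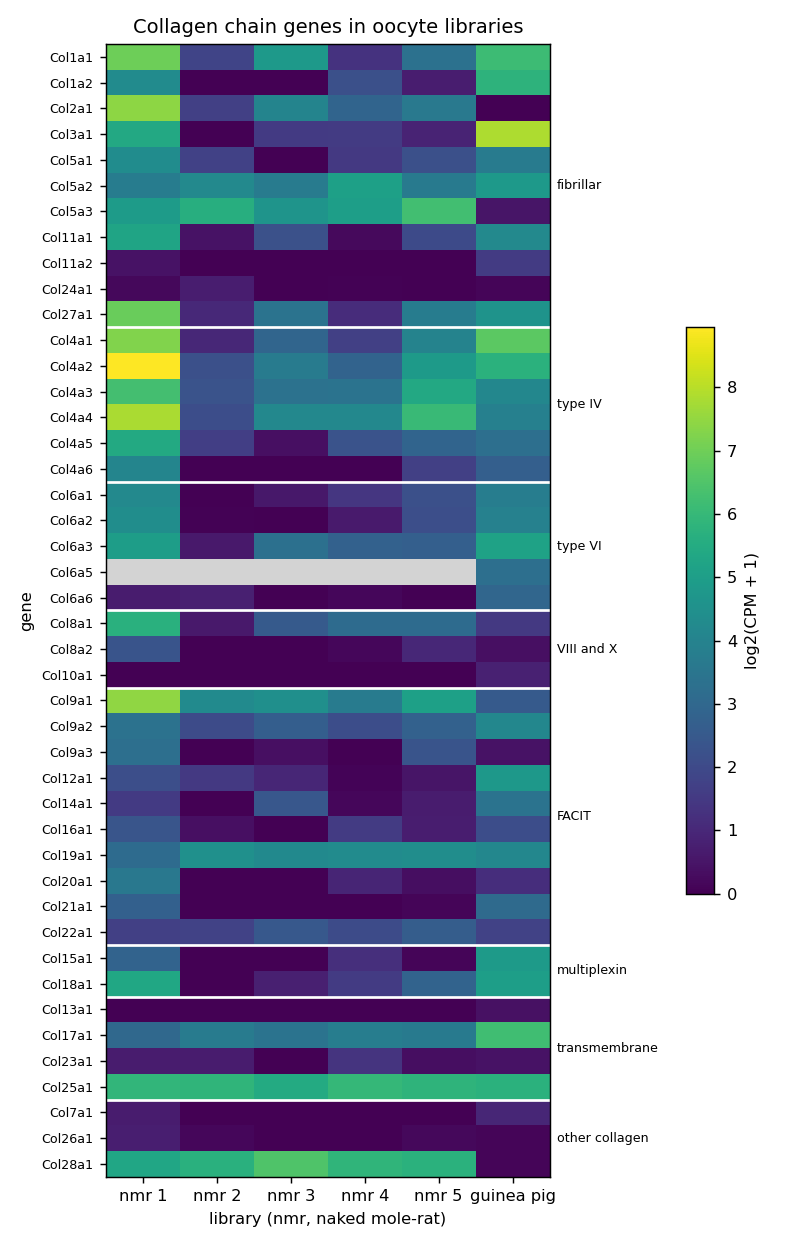
Each row is a collagen chain gene, grouped by class, and each column a library (nmr, naked mole-rat replicates 1 to 5, then guinea pig). Colour gives log2(CPM + 1), and grey marks Col6a5, which has no naked mole-rat entry. The first column is brighter than the next 4 in most rows, with 30 of 43 chains highest in it, while Col5a2, Col5a3, Col25a1 and Col28a1 vary less across the 5 columns.

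Chains present in every library were few. At least 10 CPM in all 5 naked mole-rat libraries was reached by 5 of 43 chains, or 11.6%, against 27.5% of all entries. These were the transmembrane chain Col25a1, the fibrillar type V chains Col5a2 and Col5a3, the von Willebrand factor A domain collagen Col28a1 and the FACIT chain Col9a1. Col9a1 also rose with the companion-rich library and is described with the FACIT chains. The other 4 summed to 139, 172, 168, 182 and 194 CPM in replicates 1 to 5, a mean of 171 ± 20.6 (SD, n = 5), with the lowest sum in the library richest in companion cell genes.

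Col25a1 encodes a membrane-anchored collagen that is known from neurons and is shed into amyloid plaques. It had 58.8, 56.6, 43.4, 61.1 and 55.5 CPM in replicates 1 to 5 and varied least of the 5 chains, with a coefficient of variation of 12.5%. Replicate 1 was neither the highest nor the lowest library for it, and guinea pig, at 51.2 CPM (95% Poisson interval 48.4 to 54.1), fell inside the naked mole-rat range. Such intervals cover counting error only.

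Col28a1 encodes a collagen best known from the sheaths of peripheral nerves. It had 38.2, 50.1, 88.3, 56.7 and 51.3 CPM in replicates 1 to 5, with replicate 3 the highest and the companion-rich library the lowest. In the RefSeq annotation, which is of another assembly than the one the reads were mapped to, the span of Col28a1 overlaps Mios, a gene of nutrient signalling, and a pair of pseudogenes. Mios had 125, 256, 225, 288 and 133 CPM in the same libraries and 98.0 CPM in guinea pig. The sources used here do not say whether counting used strand, and the part of Mios reads in the Col28a1 counts was not tested.

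The type V chains differ in their partners, since Col5a2 joins Col5a1 in the common type V trimer while Col5a3 is a minor chain of restricted tissues. Col5a3 had 29.5, 48.0, 23.8, 31.3 and 75.4 CPM in replicates 1 to 5 and was highest in replicate 5. Col5a2 had 12.4, 17.6, 12.2, 32.8 and 12 CPM and was highest in replicate 4. In contrast to both, Col5a1 had 19.2, 2.31, 0, 1.82 and 3.55 CPM, highest in the companion-rich library and at 0 counts in replicate 3. Col5a3 overlaps the retinol dehydrogenase gene Rdh8 in the RefSeq annotation, and Rdh8 did not pass 6.21 CPM in any library. The Col25a1 span overlaps 1 long non-coding RNA there.

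A pair of chains fell just short of 10 CPM in at least 1 library. Col19a1, a FACIT chain of basement membrane zones, had 7.70 CPM in replicate 1 and 21.7, 18.2, 19.0 and 20.0 CPM in replicates 2 to 5. Col17a1, the transmembrane collagen of hemidesmosomes in epithelia, had 7.10 CPM in replicate 1 and 12.1, 9.70, 12.7 and 11.5 CPM in replicates 2 to 5. Col19a1 missed the minimum in replicate 1 only and Col17a1 in replicates 1 and 3, and both were lowest in the library in which the oocyte genes summed to 0.47 of the median of the others. Without replicate 1, 6 chains passed 10 CPM everywhere, with Col19a1 joining the 5. At a minimum of 5 CPM in all 5 libraries, an alternative chosen after seeing the data, there were 7, with Col17a1 and Col19a1 added. Just inside the 10 CPM minimum lay Col5a2, whose lowest library had 12 CPM, and Col9a1, whose lowest had 12.1 CPM.

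**Figure D2:**
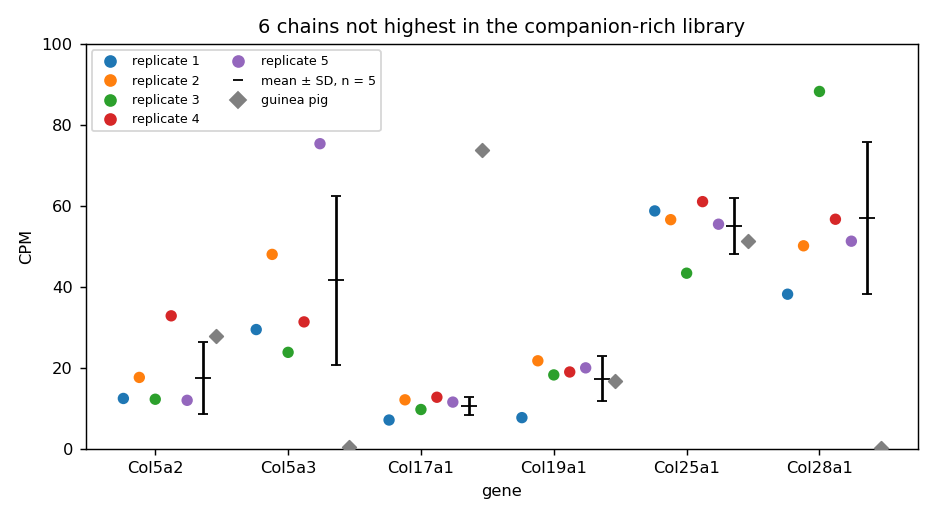
CPM (y axis, from 0) of 6 chains that were not highest in the companion-rich library, by gene. Coloured points are naked mole-rat replicates 1 to 5, the black bar gives their mean ± SD, and the grey diamond is the single guinea pig library. Col25a1 lies between 43.4 and 61.1 CPM in naked mole-rat with guinea pig at 51.2, Col5a3 and Col28a1 are near 0 in guinea pig, and Col17a1 is higher in guinea pig at 73.7 CPM.

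Most chains followed the companion cell genes. A chain was counted as following when its mean was at least 1 CPM, its highest library was replicate 1 and that level was at least 4 times the median of the other 4 libraries. Of 35 chains with such a mean, 26 did so, or 74.3%, against 20.6% of the 14415 entries with that mean. None of 16 oocyte genes and 12 of 18 granulosa genes met the same rule. Since replicate 1 was picked for its granulosa and stroma sums, the granulosa count is a description and no support for the rule. A chain can pass the mean through replicate 1 alone, and 13 of the 26 had 0 counts in at least 1 other library. With the mean taken over the other 4 libraries, an alternative chosen after seeing the data, 19 of 28 chains followed, against 17.1% of entries. With effective library sizes (TMM) in place of plain totals, 24 of 33 chains followed, against 16.3% of entries, and Col8a2 and Col21a1 no longer did.

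When replicate 1 was left out, the same question could be asked of replicate 5, the next library by companion genes. Then 8 of 28 chains were highest in replicate 5 at 4 or more times the median of the remaining libraries, against 7.40% of entries. They were Col4a1, Col4a2, Col4a3, Col6a1, Col6a2, Col9a3, Col18a1 and Col27a1, all of which also followed in the full set. Among the 26 following chains, replicate 5 was the second-highest library for 15, or 57.7%, against 69.8% of all entries that met the rule. In bulk samples, fewer companion cells and less RNA per companion cell cannot be told apart, and the part of the companion cells in any collagen level was not tested.

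Type IV chains moved together. All 6 were among the followers, all 6 had replicate 5 as their second-highest library, and their sum was 1007, 13.9, 45.5, 39.2 and 160 CPM in replicates 1 to 5. Type IV thereby accounted for 48.3% of collagen counts in replicate 1 and for 5.39% in replicate 2. Set against the summed granulosa and stroma markers, the type IV sum was 14.1% of the marker sum in replicate 1 and 1.30% in replicate 2, a 10.8-fold range, which was 5.58-fold without replicate 1. Has2 and Nr5a2, which were not raised 4-fold in replicate 1, made up 703 of the 1066 CPM of the marker sum in replicate 2. With both left out of the sum, an alternative chosen after seeing the data, the type IV share ranged from 3.82% to 15.1%, or 3.94-fold. Other markers not raised 4-fold, such as Foxl2, were kept. Because the 2 genes were left out for their levels in replicate 1, the narrower range is a description only.

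Col4a1 and Col4a2 encode the chains found in nearly all basement membranes. Col4a1 had 153, 0.990, 6.59, 2.25 and 15 CPM in replicates 1 to 5. Col4a2 had 495, 3.52, 12.1, 6.17 and 28.3 CPM. Both were lowest in replicate 2, and replicate 1 had 10.2 times the next library for Col4a1 and 17.5 times for Col4a2. Col4a3 and Col4a4, whose chains form a tighter network with the Col4a5 chain in kidney glomeruli, had a smaller step from replicate 5 to replicate 1, of 1.84 and 3.38 times. Col4a3 had 76.7, 3.92, 9.41, 9.56 and 41.6 CPM, and Col4a4 had 224, 3.34, 17.2, 17.3 and 66.3 CPM. Col4a5 had 42.2, 2.13, 0.290, 3.92 and 6.39 CPM. Col4a6, a chain of smooth muscle and some epithelial basement membranes, was counted only in replicates 1 and 5, at 16 and 2.23 CPM.

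**Figure D3:**
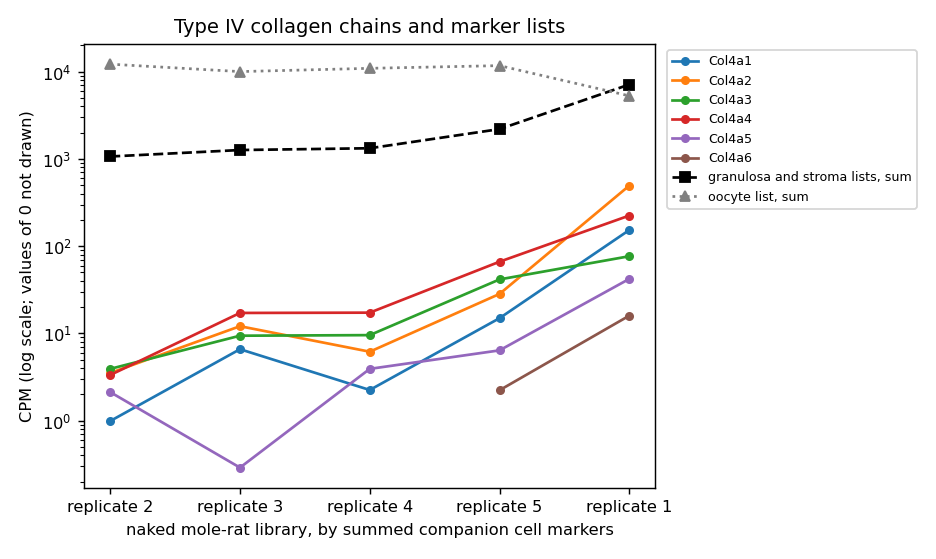
CPM on a log axis of the 6 type IV chains in the 5 naked mole-rat libraries, which are ordered by the sum of the granulosa and stroma lists (black dashed line). The grey dotted line is the sum of the oocyte list, and values of 0 are not drawn. Every type IV chain is highest in replicate 1 and next highest in replicate 5, while the oocyte sum is lowest in replicate 1.

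The fibrillar chains of connective tissue and cartilage were also highest in the companion-rich library, but not with a common second library. Col1a1, the main chain of type I collagen, had 126, 2.57, 27.7, 1.5 and 9.07 CPM in replicates 1 to 5. Its partner Col1a2 had 19.1, 0, 0, 3.57 and 0.643 CPM. Col3a1, the type III chain of distensible tissues, had 41.1, 0, 1.88, 1.93 and 0.846 CPM. Replicate 3 was second for Col1a1, whereas replicate 4 was second for Col1a2 and Col3a1.

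Among chains known mainly from cartilage, Col2a1, Col27a1 and Col11a1 were counted in every naked mole-rat library, as were Col9a1 and Col9a2, which are described with the FACIT chains. Others were not. Col9a3 had 0 counts in replicates 2 and 4, Col11a2 was counted in replicate 1 only and Col10a1 in no naked mole-rat library. Col2a1, the main cartilage fibril chain, had 172, 2.24, 15.5, 6.46 and 11.3 CPM. Col27a1, a fibrillar chain of growing cartilage, had 120, 1.03, 9.70, 1.18 and 12.7 CPM. Col11a1, which sets the width of cartilage fibrils, had 36.1, 0.367, 3.69, 0.178 and 3.04 CPM. Except for Col10a1, all these chains were highest in replicate 1. The median of the other 4 libraries was 8.89 CPM for Col2a1, 5.44 CPM for Col27a1 and 1.71 CPM for Col11a1.

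Among the FACIT chains, Col9a1 was the one that met both descriptions. It had 175, 18.5, 21.0, 12.1 and 33.4 CPM in replicates 1 to 5, so that it was above 10 CPM in every library and 8.85 times the median of the others in replicate 1. Without replicate 1 its mean was 21.3 ± 8.92 CPM (SD, n = 4). Its partner Col9a2, which with Col9a1 and Col9a3 makes type IX collagen on cartilage fibrils, had 9.25, 3.12, 5.43, 3.35 and 5.89 CPM and did not meet the rule. Col12a1, which decorates type I fibrils, had 3.48, 1.80, 0.941, 0.0713 and 0.406 CPM. Col20a1 had 11.0, 0, 0, 0.892 and 0.271 CPM.

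The type VI chains, which form beaded microfibrils around cells, were low outside the companion-rich library. Col6a1 had 17.4, 0, 0.507, 1.68 and 3.52 CPM. Col6a2 had 20.0, 0.0367, 0, 0.571 and 3.45 CPM, and Col6a3 had 30.8, 0.513, 8.98, 5.92 and 5.55 CPM. The companion-rich library was highest and replicate 2 among the lowest for all of them. The network chain Col8a1, known from vessel walls and the cornea, had 50.1, 0.513, 4.78, 7.85 and 7.68 CPM. Col18a1, the basement membrane multiplexin from which endostatin is cut, had 39.3, 0, 0.724, 1.93 and 6.19 CPM. Its relative Col15a1 had 6.14, 0, 0, 1.32 and 0.101 CPM. For each of these chains replicate 1 stood above all other libraries and replicate 2 had 14 counts or fewer.

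The 15 chains that stayed below 10 CPM in every library of both species were Col6a5, Col6a6, Col7a1, Col8a2, Col9a3, Col10a1, Col11a2, Col13a1, Col14a1, Col16a1, Col21a1, Col22a1, Col23a1, Col24a1 and Col26a1. Of these, Col8a2, Col9a3, Col16a1 and Col21a1 followed the companion genes, at 4.0 to 8.73 CPM in replicate 1. Col22a1, a FACIT chain of tissue junctions, was counted in all 6 libraries, with 2.22 to 5.24 CPM in naked mole-rat and 2.37 CPM in guinea pig. Col14a1 was highest in replicate 3, at 4.42 CPM. The 8 chains with a mean below 1 CPM in naked mole-rat, which included the anchoring fibril chain Col7a1 and the growth plate chain Col10a1, did not pass 1.53 CPM in any of those libraries.

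The makeup of the collagen RNA changed accordingly. The 4 chains present in every library without following held 6.66% of collagen counts in replicate 1 and 66.8%, 47.8%, 58.3% and 38.4% in replicates 2 to 5. The 26 following chains held 91.9% in replicate 1 and 17.1% to 52.9% in the others. In summed CPM the following chains had 1916, 44.1, 141, 90.2 and 267, a range that the other 4 chains, at 139 to 194, did not share. In guinea pig the 4 chains held 8.03% of the counts and the 26 held 77.9%. The sets were chosen from these levels, so that these shares are a description.

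**Figure D4:**
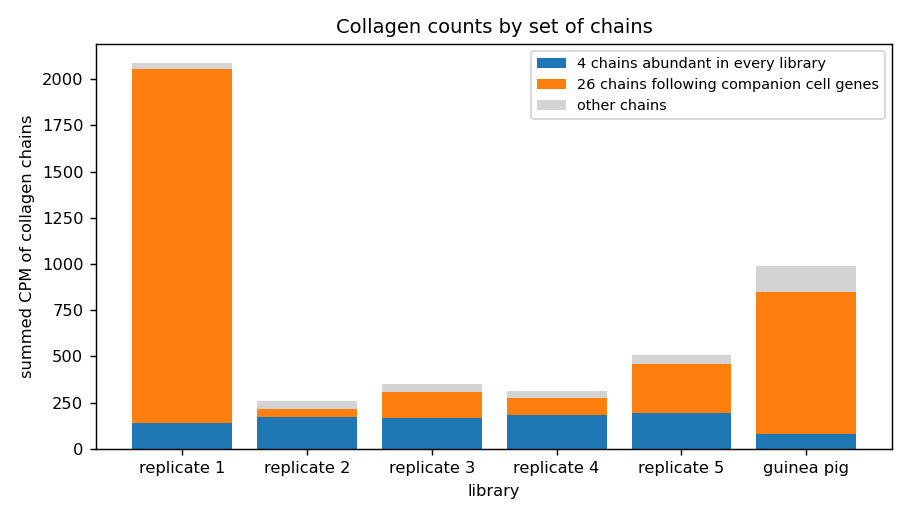
Stacked bars of summed CPM of collagen chains (y axis, from 0) in each library. Blue is the sum of Col5a2, Col5a3, Col25a1 and Col28a1, orange the 26 chains that followed the companion cell genes and grey the remaining chains. The blue part is 139 to 194 CPM in all 5 naked mole-rat libraries, and the orange part is 1916 CPM in replicate 1 and 44.1 CPM in replicate 2.

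Genes that make, modify, bind and remove collagen were counted in the same way. Of 21 genes for collagen synthesis and folding with a mean of at least 1 CPM, 14 followed the companion-rich library, as did 6 of 12 for procollagen processing and crosslinking, 3 of 9 collagen receptors, 5 of 7 for collagen breakdown and 8 of 14 other basement membrane genes. Each share is set against the 20.6% of entries given above. Without replicate 1, with replicate 5 as the reference, the counts were 5 of 20, 5 of 12, 1 of 9, 2 of 5 and 3 of 13, against 7.40% of entries. That rule was also met by 10 of 18 granulosa genes, a description only, since replicate 5 was picked for its granulosa and stroma sums. Serpinh1, the chaperone of the collagen helix, had 299, 6.63, 16, 18.4 and 73.5 CPM in replicates 1 to 5. Lox, which crosslinks collagen fibrils, had 741, 2.79, 62.7, 58.6 and 69.3 CPM. For both genes replicate 1 was highest and replicate 2 lowest. Mmp2, a protease of denatured and type IV collagen, had 287, 5.54, 10.3, 15.2 and 101 CPM, and the laminin chain gene Lama1 had 545, 10.3, 27.4, 31.2 and 226 CPM. For both, as for the type IV sum, replicate 1 was highest, replicate 5 second and replicate 2 lowest.

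Some genes of these groups had at least 10 CPM in every library, whether or not they followed. The prolyl hydroxylase subunit and disulfide isomerase P4hb, which has many clients besides collagen, had 617 CPM in replicate 1, while the others had 106 to 258 CPM, and it met the rule. Lamc1, a laminin chain shared by many trimers, had 439 CPM in replicate 1 against 239 to 329 CPM elsewhere, so that it did not meet the rule. The collagen uptake receptor gene Mrc2 had 83.0, 90.7, 29.9, 86.8 and 109 CPM in replicates 1 to 5, where replicate 3 was lowest. The integrin subunit gene Itgb1 had 197 CPM in replicate 1, against 21.4 to 68.2 CPM in the others, and it also met the rule. At least 10 CPM in all 5 libraries was reached by 18 of the 75 entries in these groups, or 24%, against 27.5% of all entries. These were 6 of 21 synthesis genes, 1 of 16 processing genes, 4 of 11 receptors, 1 of 13 breakdown genes and 6 of 14 basement membrane genes.

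Ratios of partner chains do not depend on the library total, although they do hold the lengths of both transcripts. Col4a1 and Col4a2 lie next to each other in the RefSeq annotation. The ratio of Col4a1 to Col4a2 counts was 0.309, 0.281, 0.545, 0.364 and 0.527 in replicates 1 to 5, a mean of 0.405 ± 0.123 (SD, n = 5), so that it was nearly as low in the companion-rich library as in replicate 2. In guinea pig the ratio was 2.0 (95% Clopper-Pearson interval 1.87 to 2.14), above all 5 naked mole-rat values. The ratio of Col4a3 to Col4a4, whose spans overlap in that annotation, was 0.342, 1.18, 0.549, 0.553 and 0.627, with a mean of 0.649 ± 0.313 (SD, n = 5), against 1.20 (1.04 to 1.39) in guinea pig. There the interval of the guinea pig ratio includes the highest naked mole-rat value. The ratio of Col9a1 to Col9a2 was 18.9 in replicate 1 and 3.61 to 5.95 in the others, with a mean of 7.60 ± 6.41 (SD, n = 5), against 0.288 (0.233 to 0.354) in guinea pig. For the other pairs at least 1 naked mole-rat library had 0 counts of a partner. The gene models of the species may differ in length, and their part in the ratio contrast was not tested.

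Between the species, naked mole-rat and guinea pig were compared by fold only, since a single guinea pig library allows no test. A chain was called higher in guinea pig at 4 or more times the highest naked mole-rat library and lower where the lowest naked mole-rat library was 4 or more times the guinea pig level. Symbols entered with 100 counts or more, either in the guinea pig library or in all 5 of naked mole-rat. The species and the merging of 3 females cannot be told apart here, and intervals cover guinea pig counting error only. Of 29 chains that could be compared, 5 were higher in guinea pig, or 17.2% against 8.95% of 10293 shared symbols, and 2 were lower, or 6.90% against 8.35%. Within the naked mole-rat range lay 16 of the 29, whereas 10 were above it and 3 below. That range often ended at replicate 1. Without replicate 1, only Col4a3, Col4a4, Col5a2 and Col25a1 of the 16 stayed within it. Col19a1 then fell below the range and the rest of the 16 lay above it, such as Col1a1, at 68.7 against at most 27.7 CPM. A chain high in guinea pig could enter through that library alone, as all 5 did, whereas a chain high in naked mole-rat needed 100 counts in all 5 libraries, so that the rule tilts the counts towards higher calls. With 100 counts in any library sufficing, an alternative chosen after seeing the data, 5 of 34 chains were higher, against 7.92% of symbols, and 3 were lower, against 10% of symbols, with Col2a1 added. On the scale of log2((CPM + 1) / (CPM + 1)), guinea pig over the naked mole-rat mean, the median was 1.04 over the 29 chains and 0.11 over all symbols compared.

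Higher in guinea pig were Col3a1, Col6a6, Col12a1, Col15a1 and Col17a1. The fibrillar chain Col3a1 had 228 CPM (222 to 234) in guinea pig, 5.56 times the 41.1 CPM of replicate 1, and it made up 23.1% of guinea pig collagen counts. The fibril-coating chain Col12a1 had 26.6 CPM (24.6 to 28.7), 7.63 times the highest naked mole-rat library. The multiplexin Col15a1 had 28.1 CPM (26 to 30.3), 4.58 times the highest. These 3 chains were highest in the companion-rich library within naked mole-rat. Col6a6, a chain that can replace Col6a3 in type VI microfibrils, had 6.69 CPM (5.70 to 7.80) in guinea pig, 9.12 times the highest naked mole-rat library, where no library passed 0.733 CPM. Col17a1 had 73.7 CPM (70.3 to 77.2), 5.79 times the 12.7 CPM of replicate 4, and was the only one of the 5 that was lowest in the companion-rich library.

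The companion lists of the guinea pig library were summed in the same way. Granulosa genes summed to 824 CPM there, below all 5 naked mole-rat libraries, but this rested on Has2, at 1.14 CPM against 130 to 464 CPM. Without Has2 the guinea pig sum was 823 CPM, inside the naked mole-rat range of 580 to 6772 CPM. Of 18 granulosa genes that could be compared, 1, Ptx3, was called higher in guinea pig and 3, Has2, Foxl2 and Tnfaip6, were called lower. Stroma genes, at 108 CPM, were second to replicate 1, and endothelial genes, at 605 CPM, were above the naked mole-rat range of 120 to 294 CPM. Tek alone gave 450 of those 605 CPM, against 37.7 to 159 CPM in naked mole-rat, without reaching the 4-fold rule. Of 7 endothelial genes that could be compared, 2 were called higher in guinea pig and none lower. Of 6 stroma genes that could be compared, 2 were called higher in guinea pig and none lower. Dcn had 8.08 CPM there against at most 1.5 CPM in naked mole-rat, while Lum, at 0.571 CPM, and Ptch1, at 12.5 CPM, lay within the range and Fbln1, at 1.14 CPM, was below it. Their part in the higher fibrillar and multiplexin chains was not tested. Against the 4 naked mole-rat libraries without replicate 1, 11 of 29 chains were higher in guinea pig, against 13.7% of symbols, the added ones being Col1a2, Col4a1, Col6a2, Col11a1, Col18a1 and Col21a1. At an 8-fold rule 1 of 29 chains, Col6a6, was higher, against 4.55% of symbols.

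Lower in guinea pig were Col5a3 and Col28a1, both of which had been present in every naked mole-rat library. Col28a1 had 2 counts in guinea pig, or 0.0816 CPM, and the lowest naked mole-rat library was 468 times that (95% interval 130 to 3865). Col5a3 had 10 counts, or 0.408 CPM, and the lowest naked mole-rat library was 58.4 times higher (31.8 to 122). Both calls held at 8-fold and without each replicate. How the Cavpor3.0 annotation draws these genes was not analysed here, and its part in the low counts was not tested. Outside the compared chains, Col2a1 had 0 counts in guinea pig, which allows up to 0.122 CPM, and its lowest naked mole-rat library, replicate 2 with 61 counts, was at least 18.3-fold higher. Col2a1 entered the comparison at a minimum of 10 counts, and was then called lower. Col9a1, at 4.85 CPM, lay below the naked mole-rat range of 12.1 to 175 CPM without reaching the 4-fold rule.

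Other chains lay within the naked mole-rat range. Besides Col25a1, Col19a1 had 16.8 CPM in guinea pig within a range of 7.70 to 21.7 CPM. The low end of that range was replicate 1, and the other naked mole-rat libraries, at 18.2 to 21.7 CPM, were all above guinea pig. All 6 type IV chains lay within the naked mole-rat range, which for them spans the companion-rich library, with Col4a1 at 103 CPM and Col4a2 at 51.7 CPM. Without replicate 1, only Col4a3 and Col4a4 of the 6 lay within it, and the others were above it. Col1a1 had 68.7 CPM, inside its range, which without replicate 1 ended at 27.7 CPM. Col1a2 had 54.3 CPM, which was 2.84 times the highest naked mole-rat library. Among the genes that act on collagen, the procollagen peptidase gene Adamts2 had 220 CPM in guinea pig, 30.9 times the highest naked mole-rat library, and Pcolce2, whose product enhances procollagen cleavage, had 18.3 CPM, 27.4 times the highest. The laminin chain gene Lama2 was lower, at 13.3 CPM against 66.5 to 121 CPM. No synthesis gene among 19 compared, receptor among 7 or breakdown gene among 4 passed the 4-fold rule in either direction.

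**Figure D5:**
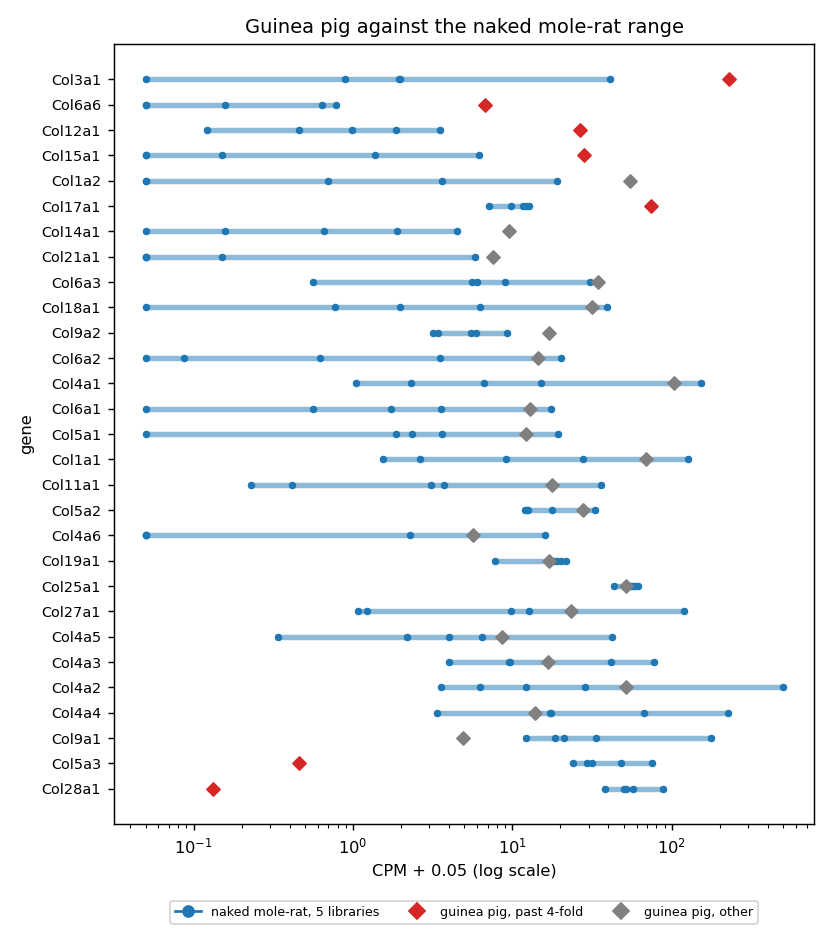
CPM + 0.05 on a log axis for the 29 chains compared between species. Blue points are the 5 naked mole-rat libraries with a line over their range, and the diamond is the guinea pig library, red where it is 4-fold outside that range. Col3a1, Col6a6, Col12a1, Col15a1 and Col17a1 are red on the right and Col5a3 and Col28a1 red on the left, and 16 diamonds lie within the range.

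The letters Y and O are the only labels that set the lettered naked mole-rat libraries apart from each other, and the 2 libraries of each were compared as a description. With edgeR's quasi-likelihood test, 0 of 30 chains that could be tested were called at an adjusted p of 0.05, against 0% of 15079 genes. At an unadjusted p under 0.05 there were 3 chains and 707 genes, or 4.69% of genes, and DESeq2 called 0 chains and 72 genes. The 3 chains were Col4a3, Col4a4 and Col1a2. Col4a4, at 3.34 and 17.2 CPM in Y and 17.3 and 66.3 CPM in O, was higher in O by 1.88 ± 0.78 on the log2 scale (SE; edgeR, adjusted p = 1.00), with groups that did not overlap but all but touched. Col4a3 was higher in O by 1.78 ± 0.76 (SE; edgeR, adjusted p = 1.00). Col1a2 had 0 counts in both Y libraries and 100 and 19 counts in the O libraries. The O libraries also had higher sums of granulosa genes, at 1261 and 2111 CPM against 1034 and 1218 in Y, and of stroma genes, at 63.9 and 85.6 against 32.0 and 46.0 CPM, whose part in these differences was not tested. Only without replicate 3 was a chain called, Col4a4, with an adjusted p of 0.0153 in edgeR, against 0.0560 to 1.00 in its other alternatives.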

How the data were processed

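Oocyte RNA was extracted, depleted of ribosomal RNA and made into directional libraries, which were sequenced as 150 bp reads. The authors trimmed reads with Trim Galore and mapped them with HISAT2 to HetGla_female_1.0 or Cavpor3.0. The submitters' processing notes give versions 0.6.1 and 2.1.0 and the methods 0.6.2 and 2.0.5. The deposited values are raw counts per gene made by the authors in SeqMonk 1.47.2. The sources used here do not give the annotation, transcript lengths or use of strand and multiply mapped reads in counting. The coruro library, counted on 3 degu sequences, was not used.

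Libraries were grouped by species from their labels. For the 10 pairs of naked mole-rat libraries, chi-square divided by the number of genes lay between 48.6 and 490, so that none was a duplicate. CPM used plain column totals, with mean and SD over 5 females, and single libraries have 95% exact Poisson or Clopper-Pearson intervals. The fold rules (10 CPM, 4-fold) carry no test. Letters were compared with edgeR 4.0.16 (TMM, filterByExpr, Benjamini-Hochberg adjustment over all genes, SE from the F statistic) in R 4.3.3. DESeq2 1.42.0 served as the other tool, and the script was tested on simulated data. Tables were handled with pandas 2.3.3 in Python 3.11.15. P-values measure the spread between females.

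Members, gene lists, rules and tests were chosen with earlier results of these data known. Chains with at least 10 CPM in any library or past the species rule are named with values. For other lists, the 3 genes highest on average and those past the species rule may be named, and Dcn, Lum, Mios and Rdh8 were named after their values were seen. Other minimums, folds, scales, marker lists and filters were tried, and each replicate was left out. All 43 chains looked up matched the RefSeq table of H.glaber_assembly_v1.0, used for neighbours only.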

Additional observations from a re-analysis of the deposited data

Results flagged for a closer look

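Within the 5 naked mole-rat libraries, 28 of 41 chains with differing values had 1 library far from the rest, in that the gap to its nearest neighbour took more than 0.71 of the whole range. Chance alone would flag about 5% of chains, or 2.05 of 41, only if their values were normally distributed. CPM values are skewed, and a chain counted in 1 library alone has a gap of 1 whatever its level. The chains are also not independent, since they share the same libraries. By the same measure 30.2% of 19834 entries with differing values stood apart, against 68.3% of the chains. In 25 chains, or 61.0%, that library was replicate 1, as the highest, against 21.0% of entries. The gap was 0.908 of the range for Col4a1, 0.949 for Col4a2, 0.715 for Col4a4, 0.854 for Col4a5 and 0.860 for Col4a6 among type IV chains. Among fibrillar chains it was 0.789 for Col1a1, 0.813 for Col1a2, 0.922 for Col2a1, 0.953 for Col3a1, 0.815 for Col5a1, 0.902 for Col11a1, 0.902 for Col27a1 and 1 for Col11a2, which was counted in replicate 1 only. It was 0.798 for Col6a1, 0.827 for Col6a2 and 0.720 for Col6a3 of type VI, and 0.852 for Col8a1 and 0.755 for Col8a2. Among FACIT chains and multiplexins it was 0.869 for Col9a1, 0.919 for Col20a1, 0.982 for Col21a1, 0.785 for Col15a1 and 0.842 for Col18a1. The anchoring fibril chain Col7a1, again counted in replicate 1 only, had 1, and Col26a1 had 0.797. The other 3 chains went another way, with replicate 4 highest for Col5a2 at 0.729, replicate 2 highest for Col24a1 at 0.776 and replicate 1 lowest for Col19a1 at 0.752. The summed collagen level, at 0.865, and the ratio of Col9a1 to Col9a2, at 0.847, also had replicate 1 far above the rest.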

How the results depend on the processing

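Of 104 alternative values, 91 stayed within 1.5 times the main count or within 1 SD of the main value. Some of these could hardly move. The stroma, granulosa and mural lists alone enter only by picking replicate 1 again, so that their count of 26 followers was fixed. The SD of the summed collagen level, 779 CPM, is itself widened by replicate 1, so that 357 CPM without replicate 1, against 702, still counted as within it. Chains present everywhere numbered 15 at 1 CPM and 0 at 100 CPM, against 5 at 10 CPM. Followers ranged from 8 to 26 when a replicate was left out, the 8 being without replicate 1. Chains higher in guinea pig numbered 1 at 8-fold and 5 to 11 when a replicate was left out, the 11 being without replicate 1. Genes called between Y and O numbered 72 with DESeq2, 66 without a filter on low counts, 56 with the replicate block by the number after the letter and 4 to 494 when a replicate was left out (162, 210, 494 and 4 without replicates 2, 3, 4 and 5), where the lone sample of a letter is assumed to vary like the others, and the called chains were 0 to 1. The block called 0 chains. Deviations of same-numbered libraries from the mean of their letter correlated at r = 0.04. With 2 libraries per letter the 2 pairs mirror each other. The value therefore cannot show whether same-numbered samples share more than a number. The cause of these changes was not tested. Chains with few counts limit precision, since 3 counts are 0.101 to 0.222 CPM, and 1 guinea pig library gives no replicate error.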
